A study of Mus musculus with 24 samples.

Results

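IAP (intracisternal A-particle) and ETn (early transposon) elements are mouse retrotransposons of the ERVK family, and the RNA counted to their subfamilies is described here in embryonic stem cells before and after induction of DUX. Members were taken by name: every deposited repeat row of class LTR and family ERVK whose subfamily name starts with IAP, ETn, MMETn or RLTRETN, in any letter case. The rule uses no measured value. It gave 30 of the 1146 repeat subfamilies, namely 25 IAP subfamilies (10 internal parts and 15 long terminal repeats, LTRs) and 5 ETn subfamilies (ETnERV-int, ETnERV2-int, ETnERV3-int, MMETn-int and the LTR RLTRETN_Mm).

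The study sequenced total RNA depleted of rRNA from KH2 mouse embryonic stem cells in 24 libraries, and its title names DUXBL as a control on the exit from a totipotent 2-cell-like state. All 24 titles carry TRE_DUX, a transgene from which doxycycline (DOX) induces DUX, and the DOX treatment lasted 16 h. There are 12 groups of 2 libraries, since 6 lines were each sampled without and with DOX: WT, DUXBL-KO, TRIM24-KO pLV2, TRIM33-KO pLV2, and a pair of WT pLV2 lines called line 1 and line 2. The labels do not explain pLV2, do not tie a WT pLV2 line to a knockout and do not call the replicates separate cultures, so that p-values measure only the spread between these libraries. The protocol allows growth on gelatin or on a feeder layer of mouse embryonic fibroblasts in serum with LIF, without saying which library had which. No group received DOX without the transgene, so DOX itself and DUX cannot be told apart.

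A complete IAP or ETn copy has an internal part between LTRs, and the LTR holds the promoter from which the element is transcribed. Some copies of both groups still move in the mouse genome, ETn with proteins supplied by related elements. In embryonic stem cells these copies are normally kept silent by KRAB zinc finger proteins, which bring TRIM28 and the H3K9 methyltransferase SETDB1 to them, and by DNA methylation. TRIM24 and TRIM33 are relatives of TRIM28. DUX is the transcription factor that switches on 2-cell-stage genes and the ERVL-family element MERVL, whose LTR is MT2_Mm.

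Gene counts ran from 11784696 to 19136869 per library, and repeat subfamilies took 7.58% to 23.0% of all counts. IAP subfamilies took 0.0355% to 0.161% of all counts and ETn subfamilies 0.176% to 0.765%. Levels are given as CPM, counts scaled to each library's gene counts with TMM factors, in the order of replicate 1 and replicate 2, and are not compared between subfamilies because no element length was used. Dux counts were 0 to 2 in every library titled without DOX and 20 to 110 in every library titled with DOX, although the treatment tag differs from the title in 8 pLV2 libraries. Trim33 stood at 20.5 and 21.9 CPM in TRIM33-KO without DOX and at 117 to 136 in WT pLV2. Trim24 stood at 138 and 126 CPM in the libraries labelled TRIM24-KO without DOX, above WT pLV2 line 1 (97.3 and 93.1) and below line 2 (198 and 165), so that whether it was lowered depends on the line taken as reference. Duxbl1 stood at 11 and 5.02 CPM in the libraries labelled DUXBL-KO with DOX and at 8.41 and 3.25 in WT, and without DOX at 0.866 and 0.319 against 1.83 and 0.365. The groups overlap in both states. Below, TRIM24-KO and DUXBL-KO stand for the libraries labelled so. Summed embryonic stem cell markers lay between 3397 and 4890 CPM in all 24 libraries with no marker at 0. With DOX their mean went from 3932 to 3460 CPM in WT pLV2 line 2, from 4499 to 4172 in TRIM24-KO and from 4112 to 3491 in TRIM33-KO, with no overlap and with 5, 4 and 5 of the 10 markers called lower and 1, 0 and 1 called higher. The groups overlap in WT pLV2 line 1, where 2 were called higher and 2 lower. In WT the DOX libraries lie higher and in DUXBL-KO the groups overlap, with 0 called by edgeR in both. Summed fibroblast markers lay between 12.1 and 36.4 CPM, with 2 to 5 of the 10 at 0, and the DOX libraries were above those without DOX in WT, TRIM24-KO, TRIM33-KO and WT pLV2 line 1. Their part in the results below was not tested.

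IAP RNA rose with DOX, and ETn RNA as a whole moved far less. The summed IAP level was 588 and 642 CPM in WT without DOX and 1034 and 789 with DOX, a ratio of means of 1.48. In the libraries labelled DUXBL-KO it was 649 and 914 without DOX and 1339 and 1518 with DOX, a ratio of 1.83. Both DOX libraries lay above both others in each of these lines.

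In WT pLV2 line 1 the summed IAP level went from 391 and 427 to 845 and 927 CPM (ratio 2.17), and in WT pLV2 line 2 from 368 and 371 to 1583 and 1414 (ratio 4.06). In the libraries labelled TRIM24-KO it went from 419 and 441 to 1014 and 1326 CPM (ratio 2.72). In TRIM33-KO it went from 389 and 361 to 2231 and 1883 CPM (ratio 5.49). The groups with and without DOX did not overlap in any of the 6 lines, and without IAPEz-int the ratios still ran from 1.83 in WT to 5.65 in TRIM33-KO. In bulk RNA, more cells of a responding type and more RNA per cell cannot be told apart.

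The summed ETn level showed ratios between 0.956 (TRIM24-KO) and 1.17 (DUXBL-KO). It stood at 6029.6 and 7786 CPM in WT without DOX and 7386 and 8618 with DOX, groups that overlap. WT pLV2 line 2 went from 2099 and 2136 to 2287 and 2301 CPM and TRIM33-KO from 2685 and 2547 to 2926 and 2697, without overlap. In TRIM24-KO both DOX libraries, at 6256 and 6539 CPM, lay below both others, at 6755 and 6624. In the libraries labelled DUXBL-KO replicate 1 was low in both states, with 3298 and 6918 CPM without DOX and 3852 and 8052 with DOX.

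**Figure D1:**
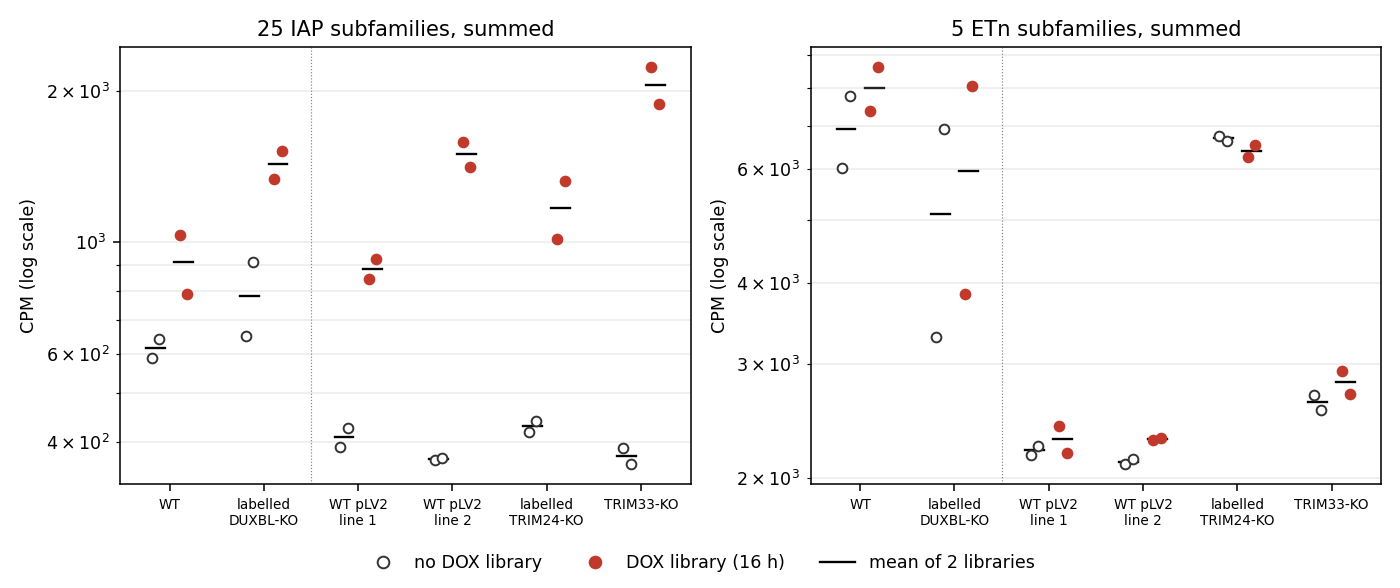
Summed CPM (log axis) of the IAP and of the ETn subfamilies in each library, by line, with open points for libraries without DOX and filled points for libraries with DOX. The IAP points with DOX lie above those without DOX in all 6 lines, while the ETn points with DOX lie above both others only in WT pLV2 line 2 and TRIM33-KO.

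Subfamily by subfamily, DOX raised 7 of the 30 members in WT, 20 in the libraries labelled DUXBL-KO, 25 in WT pLV2 line 1, 27 in WT pLV2 line 2, 25 in the libraries labelled TRIM24-KO and 28 in TRIM33-KO, and lowered none in any of these 6 lines. A subfamily is counted as raised or lowered, or called, when its adjusted p in edgeR's quasi-likelihood test is under 0.05 after Benjamini-Hochberg adjustment over all repeat subfamilies tested. All 30 members passed the filter on low counts in both sets of libraries. Among all repeat subfamilies tested, DOX raised 9.98% in WT, 29.9% in DUXBL-KO, 62.9% in WT pLV2 line 1, 71.4% in WT pLV2 line 2, 52.1% in TRIM24-KO and 76.4% in TRIM33-KO. A large part of the repeat table thus rose with DOX in the pLV2 lines, and the members' counts are to be read against that.

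The median log2 fold change of the 30 members stood above that of all repeat subfamilies in each line. The medians were 0.79 (0.49 to 1.06 when 1 library was left out) against 0.22 in WT, 1.08 against 0.32 in DUXBL-KO and 1.43 against 0.63 in WT pLV2 line 1. They were 2.09 against 0.96 in WT pLV2 line 2, 1.46 against 0.52 in TRIM24-KO and 2.64 against 1.17 in TRIM33-KO. The other ERVK subfamilies had medians from 0.34 (WT) to 1.5 (TRIM33-KO).

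The calls came mostly from IAP. Of the 25 IAP subfamilies, 7, 18, 23, 24, 23 and 25 were called higher in WT, DUXBL-KO, the WT pLV2 lines 1 and 2, TRIM24-KO and TRIM33-KO, with medians of 0.92, 1.19, 1.46, 2.30, 1.5 and 2.75. Among the 10 internal parts the counts in the same order were 3, 6, 9, 10, 9 and 10, and among the 15 LTRs 4, 12, 14, 14, 14 and 15. The 10 subfamilies named IAPEY or IAPEy gave 3, 7, 9, 9, 9 and 10 calls. The 5 ETn subfamilies gave 0, 2, 2, 3, 2 and 3 calls with medians of 0.25, 0.24, 0.23, 0.78, 0.09 and 0.82. In WT, where no ETn subfamily was called by edgeR, 1 had an unadjusted p under 0.05.

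The WT count of 7 depended on the processing, with 13 members called by DESeq2, 16 when no filter was set and 4 in a fit of only these groups. It also depended on single libraries, with 0 members called by edgeR when replicate 1 or replicate 2 of WT without DOX was left out (14 and 13 at an unadjusted p under 0.05), 4 without WT DOX replicate 1 and 15 without WT DOX replicate 2. In DUXBL-KO the count fell to 13 when p-values were adjusted over genes and repeats together, to 9 when replicate 1 without DOX was left out and to 11 when replicate 1 with DOX was. Calls over all repeat subfamilies moved in the same direction as those of the members under each of these settings in both lines. In WT 98 of 982 rose, against 140 by DESeq2, 207 of 1118 with no filter and 50 in a fit of only these groups. The fit of these 2 lines had a biological coefficient of variation of 17.6%, against 8.79% in the fit of the pLV2 lines.

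**Figure D2:**
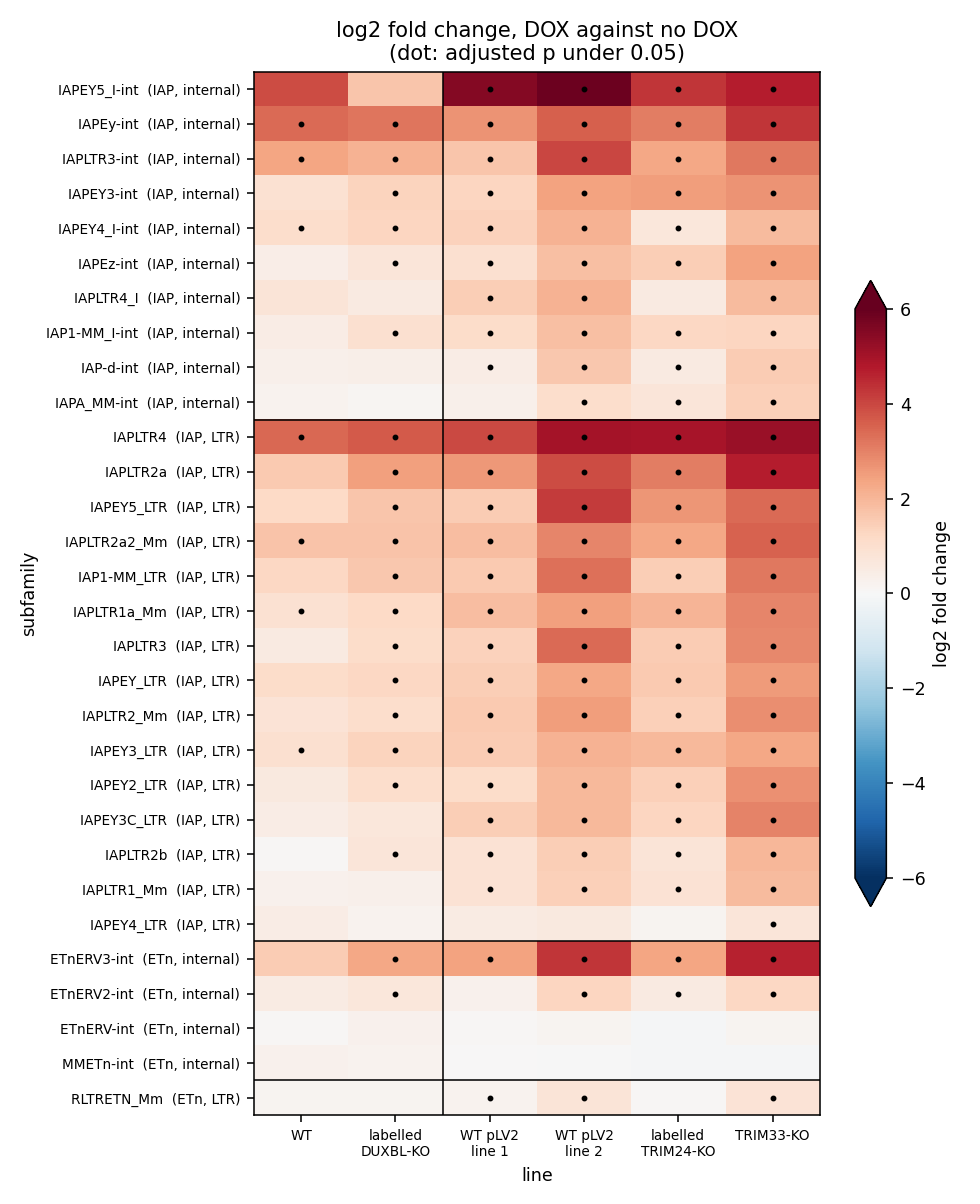
Log2 fold change with DOX of each of the 30 subfamilies (rows) in each of the 6 lines (columns), on a colour scale from -6 to 6, with a dot where the adjusted p is under 0.05. IAP rows are nearly all marked in the 4 pLV2 lines, and the rows of ETnERV-int and MMETn-int carry no dot.

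Across lines, 7 subfamilies were called higher in all 6: the internal parts IAPEy-int, IAPLTR3-int and IAPEY4_I-int and the LTRs IAPLTR4, IAPLTR2a2_Mm, IAPLTR1a_Mm and IAPEY3_LTR. In WT none of these 7 calls held when replicate 1 or replicate 2 without DOX was left out, and 3 held without DOX replicate 1. A further 12 were called in 5 lines, 5 in 4 lines, 3 in 3 lines and 1, IAPEY4_LTR, only in TRIM33-KO. ETnERV-int and MMETn-int were called in none. The same tally over all repeat subfamilies was not made, and 52.1% to 76.4% of them rose in each pLV2 line. Whether such recurrence is particular to the members is therefore not shown. Apart from IAPLTR4, IAPLTR3-int, IAPEY4_I-int, ETnERV-int and MMETn-int, which the naming rule takes, the names in this paragraph were chosen after their values were seen.

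IAPEz-int is the internal part of the IAP group that holds most of the mobile mouse copies. Its level in WT was 398 and 443 CPM without DOX and 626 and 487 with DOX. The libraries labelled DUXBL-KO had 417 and 612 CPM without DOX and 772 and 942 with DOX. The DOX libraries were the higher ones in both lines, with no overlap.

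Among the pLV2 lines, IAPEz-int stood at 222 and 243 CPM without DOX and 432 and 471 with DOX in line 1 of WT, and at 215 and 230.2 without and 821 and 738 with DOX in line 2. The libraries labelled TRIM24-KO had 246 and 267 CPM without DOX and 598 and 821 with DOX. TRIM33-KO had 209.8 and 196 CPM without DOX and 1179 and 991 with DOX. Levels before DOX lay close together in these 4 lines, and those with DOX lay apart from them in each.

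The log2 fold change of IAPEz-int was 0.40 ± 0.21 (SE, 2 against 2 libraries as in every DOX contrast) in WT, with an adjusted p of 0.265 and a range of 0.21 to 0.57 when 1 library was left out. It was 0.74 ± 0.21 in DUXBL-KO (adjusted p = 0.0319). In WT pLV2 line 1 it was 0.96 ± 0.12 (adjusted p = 2.84e-06) and in line 2 it was 1.81 ± 0.12 (adjusted p = 5.86e-10). In TRIM24-KO it was 1.47 ± 0.12 (adjusted p = 1.84e-08) and in TRIM33-KO 2.42 ± 0.13 (adjusted p = 1.11e-11), a 5.35-fold increase. The increase thus passed the test in 5 of 6 lines, although the DUXBL-KO call was lost without replicate 1 without DOX (0.49, adjusted p = 0.157) and without DOX replicate 1 (0.87, adjusted p = 0.0624) or 2 (0.59, adjusted p = 0.162).

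**Figure D3:**
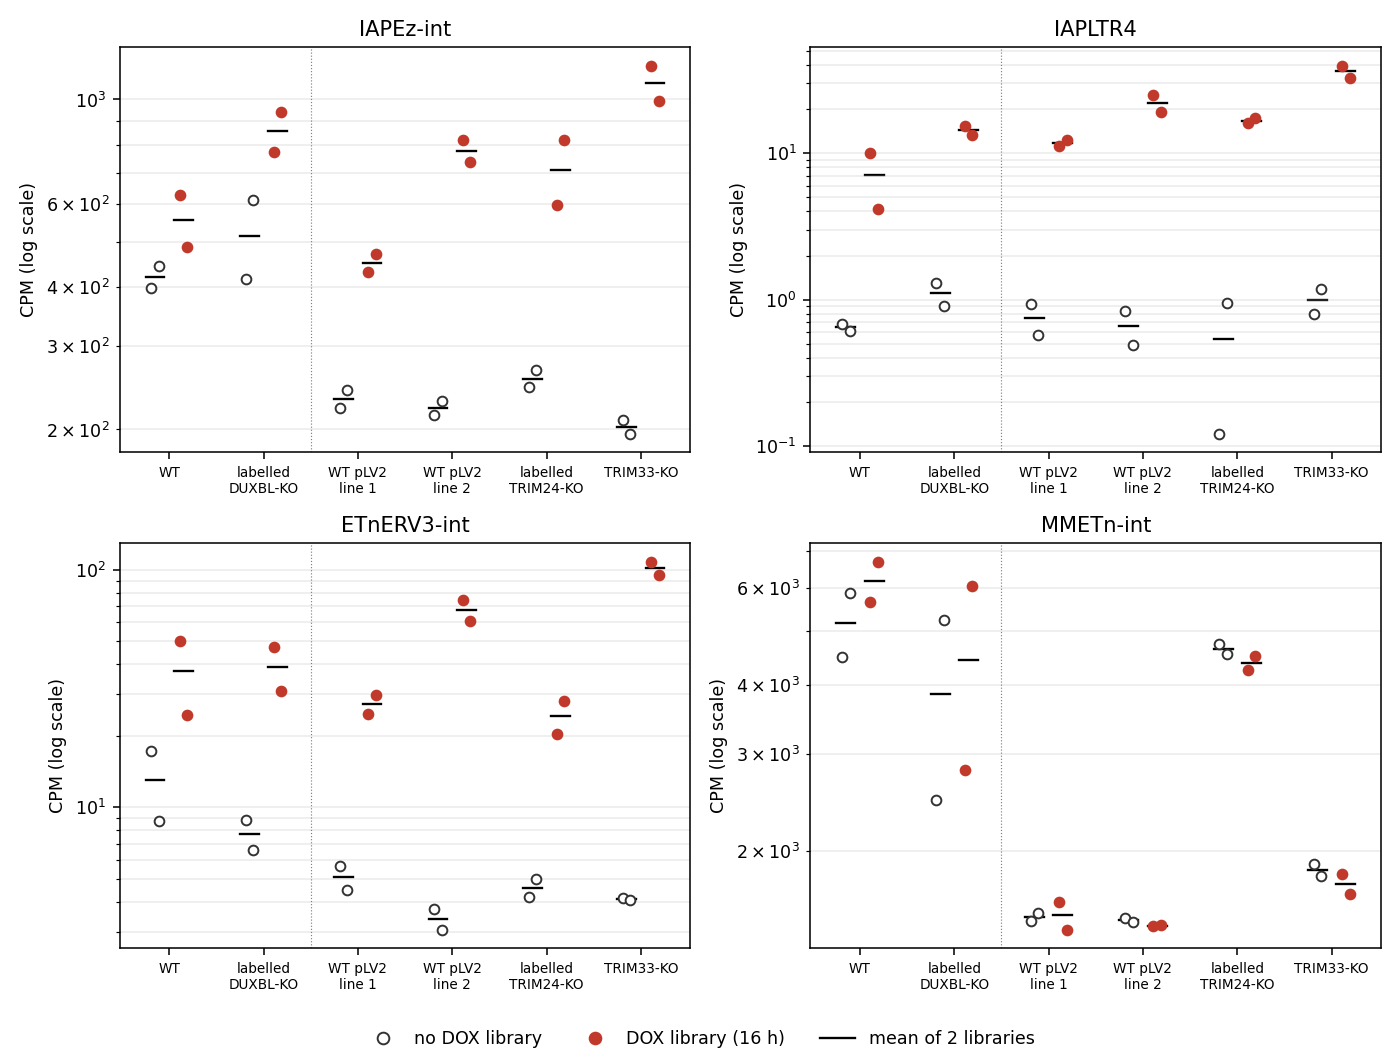
CPM (log axis) of IAPEz-int, IAPLTR4, ETnERV3-int and MMETn-int in each of the 24 libraries, by line, open without DOX and filled with DOX. The first 3 are higher with DOX in every line, and MMETn-int is not, while its points in the libraries labelled TRIM24-KO sit above the other pLV2 points in both states.

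Among the other internal parts, IAPEy-int is called in every line and starts from few counts. It stood at 0.989 and 0.851 CPM in WT without DOX and at 13.6 and 6.0 with DOX, a log2 fold change of 3.41 ± 0.53 (adjusted p = 0.0135). In TRIM33-KO it went from 3.52 and 2.06 to 57.1 and 53.2 CPM, a log2 fold change of 4.31 ± 0.28 (adjusted p = 2.16e-10).

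IAPLTR3-int, the internal part paired by name with IAPLTR3, rose in WT from 1.83 and 4.2 CPM to 20.3 and 11.7, a log2 fold change of 2.38 ± 0.40 (adjusted p = 0.0174). In WT pLV2 line 2 it rose from 3.09 and 2.26 CPM to 48.2 and 39.3, a log2 fold change of 4.01 ± 0.24 (adjusted p = 1.01e-10). In neither line did the groups overlap.

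IAPEY5_I-int had the largest fitted change of the members in WT, and it did not pass the test. Its WT libraries held 15 and 4 counts without DOX and 41 and 319 with DOX, so that DOX replicate 2 carried most of the difference. The log2 fold change was 3.91 ± 1.13 (adjusted p = 0.0674), and leaving out 1 library at a time gave 1.90 to 5.35. In WT pLV2 line 1, line 2 and TRIM24-KO its libraries without DOX held 0 to 3 counts each and those with DOX 21 to 53, so that no fold is given for these lines.

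At the other end, IAPA_MM-int changed least of the members in DUXBL-KO, with 3.14 and 3.72 CPM without DOX and 3.20 and 4.30 with DOX and a log2 fold change of 0.13 ± 0.26 (adjusted p = 0.793). It was raised in WT pLV2 line 2 (1.06 ± 0.29, adjusted p = 0.00339), in TRIM24-KO (0.74 ± 0.30, adjusted p = 0.0467) and in TRIM33-KO (1.44 ± 0.28, adjusted p = 1.63e-04).

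Among the LTRs, IAPLTR4 showed the steepest increase. It stood at 0.685 and 0.608 CPM in WT without DOX and at 9.99 and 4.18 with DOX, and at 1.30 and 0.904 against 15.4 and 13.4 in DUXBL-KO. WT pLV2 line 1 went from 0.933 and 0.570 to 11.3 and 12.4 CPM, and line 2 from 0.834 and 0.489 to 25 and 19.3. TRIM24-KO went from 0.121 and 0.947 to 16.1 and 17.3 CPM and TRIM33-KO from 0.804 and 1.2 to 39.6 and 32.9.

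Every DOX library was above every library without DOX for IAPLTR4. The fold changes were 10.9 in WT (log2 3.44 ± 0.49, adjusted p = 0.00986), 13.0 in DUXBL-KO (3.70 ± 0.44, adjusted p = 0.00308) and 15.6 in WT pLV2 line 1 (3.97 ± 0.34, adjusted p = 4.14e-08). They were 32.2 in line 2 (5.01 ± 0.31, adjusted p = 1.89e-10), 30.3 in TRIM24-KO (4.92 ± 0.35, adjusted p = 2.4e-09) and 36.2 in TRIM33-KO (5.18 ± 0.28, adjusted p = 1.77e-11). Apart from WT, this was the largest fitted change in each line among members with a mean of at least 50 counts and more than the floor of 3 counts without DOX. The libraries without DOX held only 2 to 24 counts, which limits how precisely the folds are known. In TRIM24-KO the log2 value was 4.12 when replicate 1 without DOX was left out and 7.0 when replicate 2 without DOX was, the library at 0.947 CPM.

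IAPLTR1_Mm, an LTR of the mobile IAP group, changed less. Its level in WT was 46.3 and 44.4 CPM without DOX and 59.9 and 49.8 with DOX, and in DUXBL-KO 44.6 and 64.5 without and 63.2 and 73.6 with DOX. Neither change passed the test (0.27 ± 0.19, adjusted p = 0.431, and 0.33 ± 0.19, adjusted p = 0.258), and the DUXBL-KO groups overlap. Leaving out 1 library moved them over 0.13 to 0.40 and 0.0856 to 0.62.

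In the pLV2 lines IAPLTR1_Mm rose from 26.1 and 30.5 to 51.6 and 53.0 CPM in WT line 1 and from 26.2 and 27.2 to 73.2 and 69.8 in line 2. It rose from 33.2 and 35.8 to 63.8 and 63.6 CPM in TRIM24-KO and from 27.2 and 24.5 to 105 and 86.4 in TRIM33-KO. The log2 fold changes were 0.89 ± 0.10, 1.42 ± 0.10, 0.89 ± 0.10 and 1.90 ± 0.10 in that order, with adjusted p-values of 8.12e-07, 7.38e-10, 6.7e-07 and 1.11e-11.

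IAPLTR2_Mm, another IAP LTR, moved further than IAPLTR1_Mm in the pLV2 lines. It went from 9.79 and 10.3 CPM to 27.1 and 31.6 in WT line 1 and from 9.33 and 8.92 to 51.5 and 51.9 in line 2. In TRIM24-KO it went from 8.93 and 9.53 to 23.3 and 27.5 CPM and in TRIM33-KO from 10.2 and 8.64 to 70.2 and 60.7. The groups were far apart in all 4 lines, with log2 fold changes of 1.55 ± 0.12, 2.50 ± 0.12, 1.45 ± 0.13 and 2.80 ± 0.12 (adjusted p = 1.83e-08, 9.1e-12, 3.98e-08 and 1.25e-12).

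In WT, IAPLTR2_Mm went from 13.4 and 12.7 to 28.6 and 17.5 CPM, which missed the threshold (0.82 ± 0.23, adjusted p = 0.0655, and 0.43 to 1.13 when 1 library was left out). In DUXBL-KO it went from 14.7 and 16.9 to 35.5 and 30.6 CPM (1.07 ± 0.23, adjusted p = 0.012), a call lost without replicate 1 without DOX (0.97, adjusted p = 0.0828) and without DOX replicate 1 (0.96, adjusted p = 0.0702). The groups did not overlap in either line.

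The ETn subfamilies split into a pair that rose and a pair that was not called in any line, with the LTR between them. ETnERV3-int rose steeply in all lines but WT, where it missed the threshold. It stood at 17.2 and 8.76 CPM in WT without DOX and at 50.2 and 24.5 with DOX, and at 8.88 and 6.60 against 47.1 and 31.0 in DUXBL-KO. Both DOX libraries were the higher ones in each, with log2 fold changes of 1.53 ± 0.43 (adjusted p = 0.0655) and 2.33 ± 0.45 (adjusted p = 0.00789).

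In the pLV2 lines ETnERV3-int rose from 5.66 and 4.50 to 24.7 and 29.7 CPM in WT line 1 and from 3.73 and 3.06 to 74.8 and 60.8 in line 2. It rose from 4.19 and 4.97 to 20.4 and 28.0 CPM in TRIM24-KO and from 4.17 and 4.07 to 108 and 95.1 in TRIM33-KO. The fold changes were 5.36, 19.8, 5.20 and 24.6 in that order (log2 2.42 ± 0.18, 4.31 ± 0.18, 2.38 ± 0.18 and 4.62 ± 0.17, with adjusted p-values of 6e-09, 1.49e-12, 7.39e-09 and 2.72e-13). ETnERV2-int changed less, with log2 fold changes from 0.25 (WT pLV2 line 1, adjusted p = 0.111) to 1.27 (WT pLV2 line 2, adjusted p = 2.13e-07), and was called in 4 lines.

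MMETn-int stood at 4487 and 5874 CPM in WT without DOX and at 5642 and 6684 with DOX. In DUXBL-KO it stood at 2474 and 5232 without DOX and at 2802 and 6049 with DOX, replicate 1 being low in both states. In WT pLV2 line 1 it was 1489 and 1539 against 1615 and 1437 with DOX. These groups overlap in all 3 lines.

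For the other pLV2 lines the MMETn-int levels were 1511 and 1484 CPM against 1457 and 1467 with DOX in WT line 2, and 4732 and 4545 against 4256 and 4499 in TRIM24-KO. In TRIM33-KO they were 1893 and 1795 CPM against 1815 and 1665 with DOX. The DOX libraries were slightly lower in the first 2, and the TRIM33-KO groups overlap.

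The log2 fold changes of MMETn-int in the 4 pLV2 lines were 0.01, -0.03, -0.08 and -0.08 (SE 0.07 each, adjusted p from 0.307 to 0.899), with 95% intervals that lay between -0.24 and 0.16. Their sign turns with the scaling, to -0.01 in WT pLV2 line 1 and to 0.02 in line 2 and in TRIM33-KO with RLE size factors. In WT the value was 0.25 ± 0.42 (adjusted p = 0.788) with a wide interval from -0.73 to 1.23. ETnERV-int had log2 fold changes from -0.07 ± 0.08 (TRIM24-KO, adjusted p = 0.525) to 0.24 (DUXBL-KO, adjusted p = 0.756), and its values were 1299.6 and 1686 CPM in WT without DOX and 1438 and 1655 with DOX. In WT it was the member with the smallest change, 0.05 ± 0.42 (adjusted p = 0.974).

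RLTRETN_Mm, the ETn LTR, rose from 92.2 and 93.8 to 114 and 105 CPM in WT pLV2 line 1 and from 71.5 and 67.5 to 123 and 116 in line 2. It rose from 86.5 and 84.7 to 157 and 146 CPM in TRIM33-KO and stood at 228 and 225 against 249 and 233 with DOX in TRIM24-KO. The log2 fold changes were 0.23 ± 0.07 (adjusted p = 0.00614), 0.78 ± 0.07 (adjusted p = 1.29e-08) and 0.82 ± 0.07 (adjusted p = 3.96e-09), and 0.09 ± 0.07 in TRIM24-KO (adjusted p = 0.285). In WT and DUXBL-KO they were 0.15 ± 0.32 and 0.17 ± 0.32 (adjusted p = 0.857 and 0.78). The LTR was thus called in 3 of the 4 pLV2 lines, in which MMETn-int and ETnERV-int were not. Its line 1 call was lost without DOX replicate 1 (0.18, adjusted p = 0.0824).

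The DOX effects differed between lines, and these differences were tested as interaction terms in the same fits. WT pLV2 line 2 responded more than line 1 in 16 of the 30 members (13 IAP and 3 ETn) and less in none, where 18.5% of all repeat subfamilies responded more and 0% less. The median difference over the members was 0.84 on the log2 scale. ETnERV3-int differed by 1.88 ± 0.26 (adjusted p = 2.96e-04), IAPLTR3-int by 2.33 ± 0.34 (adjusted p = 3.32e-04) and IAPEz-int by 0.85 ± 0.17 (adjusted p = 0.0027). IAPLTR1_Mm differed by 0.54 ± 0.14 (adjusted p = 0.0129), IAPLTR2_Mm by 0.95 ± 0.17 (adjusted p = 0.00143) and RLTRETN_Mm by 0.55 ± 0.10 (adjusted p = 0.00123). RLTRETN_Mm and IAPLTR3-int were also called lower in line 2 than in line 1 without DOX, and that lower start enters their differences. For RLTRETN_Mm the larger gap between these lines lay in the levels without DOX. The count was 10 with p-values adjusted over genes and repeats together. Without 1 library at a time it was 11 to 17, and IAPLTR1_Mm missed the threshold without replicate 2 of line 1 without DOX (0.42, adjusted p = 0.0942) and without DOX replicate 1 of line 1 (0.52, adjusted p = 0.0553) or of line 2 (0.50, adjusted p = 0.0568).

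TRIM33-KO responded more than the mean of both WT pLV2 lines in 16 members (13 IAP and 3 ETn) and less in none. The background was 34.4% of all repeat subfamilies with a larger and 0.307% with a smaller response. IAPEz-int differed by 1.04 ± 0.15 (adjusted p = 3.09e-04), IAPLTR1_Mm by 0.74 ± 0.12 (adjusted p = 4e-04), IAPLTR2_Mm by 0.77 ± 0.15 (adjusted p = 0.00104) and RLTRETN_Mm by 0.32 ± 0.08 (adjusted p = 0.00721). The result rested on which WT line was the reference: against line 1 alone 22 members were called, and against line 2 alone edgeR called 0, with 9 at an unadjusted p under 0.05. IAPLTR1_Mm then differed by 0.48, IAPLTR2_Mm by 0.30 and RLTRETN_Mm by 0.0418. The count was 9 with p-values adjusted over genes and repeats together, and also 9 without TRIM33-KO DOX replicate 1, with RLTRETN_Mm at 0.26 (adjusted p = 0.0555).

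For IAPEz-int the TRIM33-KO effect exceeded that of WT line 1 by 1.46 ± 0.17 (adjusted p = 1.22e-05) and that of line 2 by 0.61 ± 0.17 (adjusted p = 0.113). The labels do not say which line is the parent.

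The libraries labelled TRIM24-KO responded less than the WT pLV2 mean in 3 members and more in none, against 2.15% of all repeat subfamilies with a smaller and 0% with a larger response. These were IAPEY4_I-int (-1.04 ± 0.17, adjusted p = 0.00164), RLTRETN_Mm (-0.42 ± 0.08, adjusted p = 0.00731) and ETnERV3-int (-0.98 ± 0.23, adjusted p = 0.0352), the last named after its value was seen. None of the 3 was called with WT line 1 as the only reference, and all 3 were with line 2. RLTRETN_Mm then stood at -0.15 (adjusted p = 0.523) and -0.69 (adjusted p = 1.42e-04), and IAPEY4_I-int at -0.70 (adjusted p = 0.187) and -1.38 (adjusted p = 1.54e-04). IAPEz-int differed by 0.08 ± 0.15 (adjusted p = 0.752), with opposite signs by reference: 0.51 ± 0.17 when WT line 1 served alone (adjusted p = 0.227), -0.34 ± 0.17 when line 2 did (adjusted p = 0.159). Against line 1 alone 1 member was called, with a larger response, and against line 2 alone 11 were, all with a smaller one; the count was 6 without TRIM24-KO DOX replicate 2, and 7 (1 larger, 6 smaller) without a filter on low counts. The contrasts of TRIM24-KO and TRIM33-KO use the same WT libraries. IAPEY4_I-int and RLTRETN_Mm were also called higher in TRIM24-KO without DOX, as given below, and that start enters their DOX effects.

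Between the libraries labelled DUXBL-KO and WT, edgeR called no member as differing in its DOX effect, 0 had an unadjusted p under 0.05, and DESeq2 called 0. Of all repeat subfamilies, 0% differed in either direction in the edgeR fit with the filter. Without a filter on low counts edgeR called 1 member. The median difference over the members was 0.23 (0.0441 to 0.53 when 1 library was left out), and that of IAPEz-int was 0.33 (0.0812 to 0.64) with a 95% interval from -0.35 to 1.01, which holds differences as large as its DOX effect in WT.

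Before induction, the lines differed in ETn. The libraries labelled TRIM24-KO held 3.10 times the summed ETn level of the WT pLV2 lines, 6755 and 6624 CPM against 2099 to 2239.5, with no overlap. Their summed IAP level was 1.10 times that of WT. The 3 ETn subfamilies called higher were ETnERV-int, MMETn-int and RLTRETN_Mm.

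MMETn-int stood at 4732 and 4545 CPM in these TRIM24-KO libraries and at 1484 to 1539 in the 4 WT pLV2 libraries, a 3.08-fold difference (log2 1.62 ± 0.06, adjusted p = 1.37e-12). ETnERV-int stood at 1762 and 1810.5 CPM against 483 to 557 (1.75 ± 0.06, adjusted p = 1.37e-12). RLTRETN_Mm stood at 228 and 225 CPM against 67.5 to 93.8 (1.49 ± 0.06, adjusted p = 1.37e-12). ETnERV2-int and ETnERV3-int, which rose with DOX in this line, did not pass the test here (-0.13 ± 0.12, adjusted p = 0.558, and 0.14 ± 0.19, adjusted p = 0.685).

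In all, 6 members were higher in TRIM24-KO without DOX and 1 was lower, where 7.37% of all repeat subfamilies were higher and 0.921% lower. The IAP members among them were IAPEY4_I-int (1.04 ± 0.12, adjusted p = 8.84e-06), IAPEY4_LTR (1.12 ± 0.22, adjusted p = 0.0042) and IAPLTR1_Mm (0.33 ± 0.09, adjusted p = 0.0267), and the lower one was IAPEY3-int (-0.84 ± 0.14, adjusted p = 0.00104). IAPEY4_LTR and IAPEY3-int were named after their values were seen. The call of IAPLTR1_Mm was lost in 5 of 6 cases when 1 library was left out (adjusted p up to 0.211), all but that without replicate 2 of WT pLV2 line 1, and with line 1 as the only reference (0.28, adjusted p = 0.0612). For IAPEY4_I-int the levels were 40.9 and 38.4 CPM in TRIM24-KO and 17.8 to 21.9 in WT pLV2 without DOX, and 64.6 and 63.0 against 46.5 to 99.9 with DOX. The DOX levels of this subfamily lay inside the WT range. Both contrasts use the same libraries without DOX, so its higher start and its smaller DOX effect are not separate results. In the same comparison 3 of 5 fibroblast markers tested were called lower, and of 10 embryonic stem cell markers 3 were higher and 4 lower; their part in these differences was not tested.

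TRIM33-KO differed from the WT pLV2 mean without DOX in 4 members, all higher, where 4.71% of repeat subfamilies were higher and 0.307% lower. MMETn-int was 1893 and 1795 CPM against 1484 to 1539 (0.29 ± 0.06, adjusted p = 0.014) and IAPLTR3-int 7.78 and 8.25 CPM against 2.26 to 7.54 (0.93 ± 0.21, adjusted p = 0.021). ETnERV-int differed by 0.27 ± 0.07 (adjusted p = 0.0313) and IAP1-MM_I-int by 0.50 ± 0.14 (adjusted p = 0.0476). Of these 4 calls, 2 held with WT line 1 as the only reference and 3 with line 2. IAPLTR3-int, itself lower in line 2, differed by 0.29 (adjusted p = 0.395) from the former and by 1.56 (adjusted p = 0.00137) from the latter, and ETnERV-int missed the threshold against the latter (0.30, adjusted p = 0.0628). All 4 calls were lost when some single libraries were left out: edgeR called 0 members without WT pLV2 line 1 replicate 1, TRIM33-KO replicate 1 or TRIM33-KO replicate 2 (5, 9 and 6 at an unadjusted p under 0.05), and 2 without line 1 replicate 2 or line 2 replicate 2. With RLE size factors 2 were called, and without a filter on low counts 7, of which 1 lower. Here 3 of 5 fibroblast markers tested were called higher, and of 10 embryonic stem cell markers 2 were higher and 4 lower; their part was not tested.

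WT pLV2 line 2 was lower than line 1 without DOX in 6 members and higher in none, where 3.28% of all repeat subfamilies were lower and 13.4% higher. IAP1-MM_I-int stood at 3.68 and 4.52 CPM in line 2 and at 8.86 and 10.8 in line 1 (-1.27 ± 0.17, adjusted p = 2.38e-04). IAP-d-int stood at 19.2 and 18.8 CPM against 33.1 and 34.0 (-0.82 ± 0.13, adjusted p = 6.46e-04). RLTRETN_Mm was also lower, at 71.5 and 67.5 CPM against 92.2 and 93.8 (-0.42 ± 0.07, adjusted p = 6.79e-04), as were IAPLTR3-int, ETnERV2-int and IAP1-MM_LTR. Markers differed too: summed fibroblast markers had means of 32.4 CPM in line 2 and 17.6 in line 1, with 4 of 5 tested called higher and 1 lower. Embryonic stem cell markers had summed means of 3932 and 4798 CPM, with 2 of 10 higher and 6 lower, and 2 of 5 2-cell markers were lower. The 2-cell markers were near the floor, with summed counts of 15 and 8 in line 2 and 51 and 40 in line 1. For the comparisons without DOX no share of all genes called is given, so the marker counts have no background beside them. The part of the markers in the differences between these lines was not tested.

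The libraries labelled DUXBL-KO and WT did not differ in any member without DOX by edgeR, with 6 at an unadjusted p under 0.05 and 0 called by DESeq2. Of all repeat subfamilies 0% were higher and 0% lower in the edgeR fit with the filter. Without a filter on low counts edgeR called 6 members. MMETn-int differed by -0.43 ± 0.42, with a 95% interval from -1.41 to 0.56. The summed ETn level was 0.739 times that of WT, with groups that overlap. The summed IAP level was 1.27 times that of WT, at 649 and 914 against 588 and 642 CPM, without overlap. The median log2 difference of the IAP members was 0.44, against 0.13 over all repeat subfamilies.

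**Figure D4:**
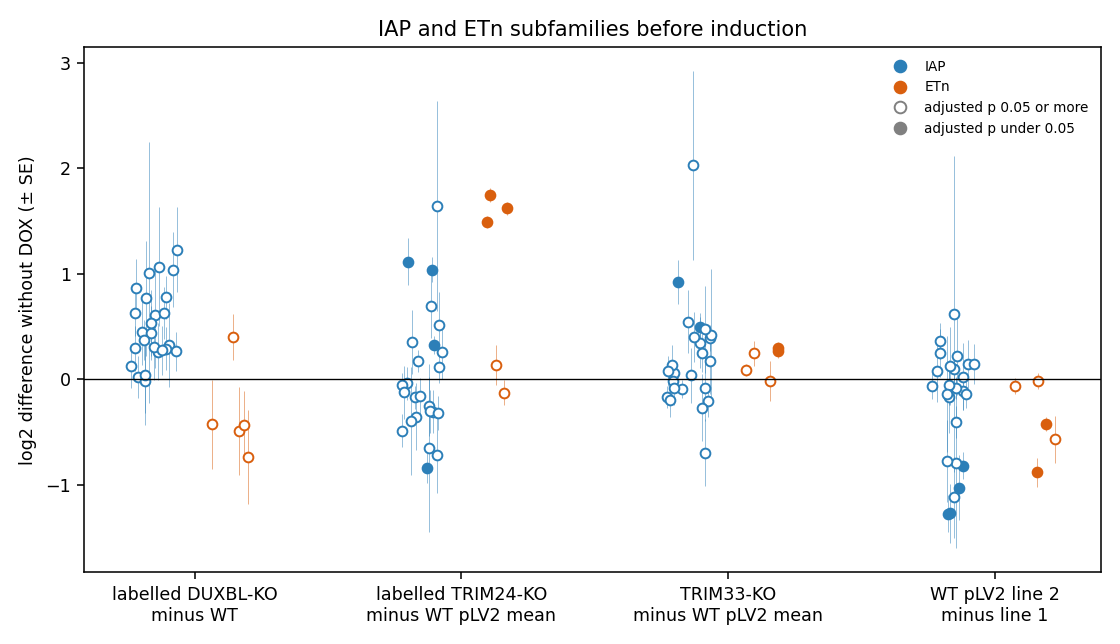
Log2 difference without DOX (± SE) of each of the 30 subfamilies in 4 comparisons: DUXBL-KO against WT, TRIM24-KO and TRIM33-KO against the mean of both WT pLV2 lines, and WT pLV2 line 2 against line 1. Filled points have an adjusted p under 0.05; ETnERV-int, MMETn-int and RLTRETN_Mm stand at 1.49 to 1.75 in the TRIM24-KO comparison.

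Genes linked to the silencing of retroviral elements, not only of IAP and ETn, moved in both directions with DOX in the pLV2 lines. Of a list of 36 such genes, all tested, edgeR called 0 in WT (4 at an unadjusted p under 0.05, 0 by DESeq2) and 0 in DUXBL-KO (7 at an unadjusted p under 0.05, 2 by DESeq2), where 2.94% and 4.56% of all genes rose and 0.083% and 0.426% fell. Without a filter on low counts edgeR called 1 in WT and 3 in DUXBL-KO, and a fit of only the groups compared called 1 in DUXBL-KO. In WT pLV2 line 1, 4 rose and 3 fell, against 10.5% and 4.36% of all genes. In line 2, 3 rose and 11 fell, against 12.7% and 13.1%. In TRIM24-KO 2 rose and 2 fell, against 10.3% and 6.39%, and in TRIM33-KO 4 rose and 18 fell, against 15.3% and 22.6%. The median of all genes tested was -0.12 on the log2 scale in TRIM33-KO with the TMM scaling, and -0.01 with RLE size factors.

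These counts depended on single libraries and on the fit. The 7 calls in WT pLV2 line 1 fell to 1, Zfp809, without replicate 1 or replicate 2 without DOX or without DOX replicate 2, and to 4 without DOX replicate 1, while a fit of only the groups compared called 16, 5 higher and 11 lower. In line 2 the 14 calls fell to 9 without replicate 1 without DOX or with DESeq2, to 8 without DOX replicate 1 and to 6 with only the groups compared. In TRIM24-KO, 2 were called with only the groups compared, and 2, Trim28 and Zfp809, without replicate 2 of either state, and in TRIM33-KO 13 were called without replicate 2 without DOX and 14 without DOX replicate 1.

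Zfp809, a KRAB zinc finger gene whose protein recruits TRIM28 to other retroviral sequences, rose the most clearly in the pLV2 lines. It went from 29.8 and 34.5 to 89.7 and 101 CPM in WT line 1 and from 21.8 and 19.6 to 94.2 and 88.0 in line 2. It went from 56.4 and 52.3 to 156 and 192 CPM in TRIM24-KO and from 17.4 and 16.3 to 133 and 121 in TRIM33-KO. The log2 fold changes were 1.57 ± 0.11, 2.13 ± 0.11, 1.68 ± 0.10 and 2.92 ± 0.11 (adjusted p = 4.38e-09, 5.9e-11, 7.49e-10 and 7.75e-13), with no overlap between groups.

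Trim28, the co-repressor itself, rose modestly in these lines, by 0.27, 0.32, 0.36 and 0.46 on the log2 scale (SE 0.06 or 0.07, adjusted p = 0.00782, 0.00138, 6.28e-04 and 2.71e-05). Setdb1 rose by 0.26 in both WT pLV2 lines (adjusted p = 0.0279 and 0.0195) and missed the threshold in TRIM24-KO (0.21, adjusted p = 0.0835) and TRIM33-KO (0.18, adjusted p = 0.0706). When 1 library was left out at a time, the line 1 call of Trim28 was lost in 3 of 4 cases and that of Setdb1 in 4 of 4 (adjusted p up to 0.0765 and 0.139), and the line 2 call of Setdb1 in 2 of 4 (up to 0.13). Dnmt1, the maintenance DNA methyltransferase, fell in TRIM33-KO (-0.22 ± 0.06, adjusted p = 0.0104), where Uhrf1, which guides it, rose (0.24 ± 0.08, adjusted p = 0.0297). Neither passed the test in the other lines, and in TRIM33-KO both calls were lost without replicate 2 without DOX and that of Uhrf1 also without DOX replicate 1 (adjusted p up to 0.107 for Dnmt1 and 0.331 for Uhrf1).

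Of the genes that fell, Morc3, a chromatin ATPase, changed by -0.29 ± 0.06 in WT pLV2 line 2, -0.26 ± 0.06 in TRIM24-KO and -0.43 ± 0.06 in TRIM33-KO (adjusted p = 0.00268, 0.01 and 4.74e-05). Zfp819, a zinc finger gene linked to IAP silencing, changed by -0.55 ± 0.16, -0.72 ± 0.16 and -0.85 ± 0.16 in WT pLV2 line 1, line 2 and TRIM33-KO (adjusted p = 0.0258, 0.00242 and 4.63e-04). Zfp932, whose protein binds ERVK copies, changed by -0.42 in WT pLV2 line 2 and in TRIM33-KO (adjusted p = 0.0145 and 0.0122), and its close relative Gm15446 passed the test in no line. Dnmt3a fell in WT pLV2 line 1 (-0.37 ± 0.09, adjusted p = 0.0104). Leaving out 1 library at a time ended the line 1 calls of Zfp819 in 4 of 4 cases and of Dnmt3a in 3 of 4, the calls of Zfp932 in 2 of 4 in each line and that of Morc3 in TRIM24-KO in 2 of 4, with adjusted p-values up to 0.22, 0.122, 0.11 and 0.101.

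The order of the summed IAP levels with DOX among the pLV2 lines was that of MERVL-int. With DOX, MERVL-int stood at 16215 and 19803 CPM in WT line 1, 23451 and 31753 in TRIM24-KO, 57185 and 45477 in WT line 2 and 90188 and 73443 in TRIM33-KO. The summed IAP levels given above fall in the same order, with no overlap between neighbouring lines in either measure. Dux RNA had another order, highest in WT line 1 with 7.23 and 8.34 CPM, then TRIM33-KO with 6.95 and 5.70, WT line 2 with 4.44 and 4.0, and TRIM24-KO with 3.15 and 2.98. The Dux row held only 24 to 110 counts in these libraries. Whether it counts RNA of the transgene, of endogenous copies or both was not determined, so its order is no measure of DUX dose. In the other 2 lines, DUXBL-KO was above WT in both measures, with MERVL-int at 37197 and 33991 CPM against 23202 and 9958. The 2 measures come from the same libraries and share their depth and scaling, so this is a description without a test. The lack of overlap in IAP rests on the TMM scaling. As a share of all counts with DOX, IAP took 0.0862% and 0.0720% in TRIM24-KO against 0.0769% and 0.0810% in WT line 1. It took 0.161% and 0.123% in TRIM33-KO against 0.131% and 0.122% in WT line 2, so that both pairs of lines overlap. The gene CT010467.1 took 30.4% and 12.9% of gene counts in replicate 2 of these knockouts.

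MERVL-int itself rose by 6.86 (WT), 7.39 (DUXBL-KO), 7.10 (WT pLV2 line 1), 9.04 (line 2), 7.83 (TRIM24-KO) and 9.45 (TRIM33-KO) on the log2 scale. The IAP medians of 0.92 to 2.75 are small beside these. Summed 2-cell markers were at 0.182 to 3.40 CPM without DOX and at 476 to 4697 with DOX.

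**Figure D5:**
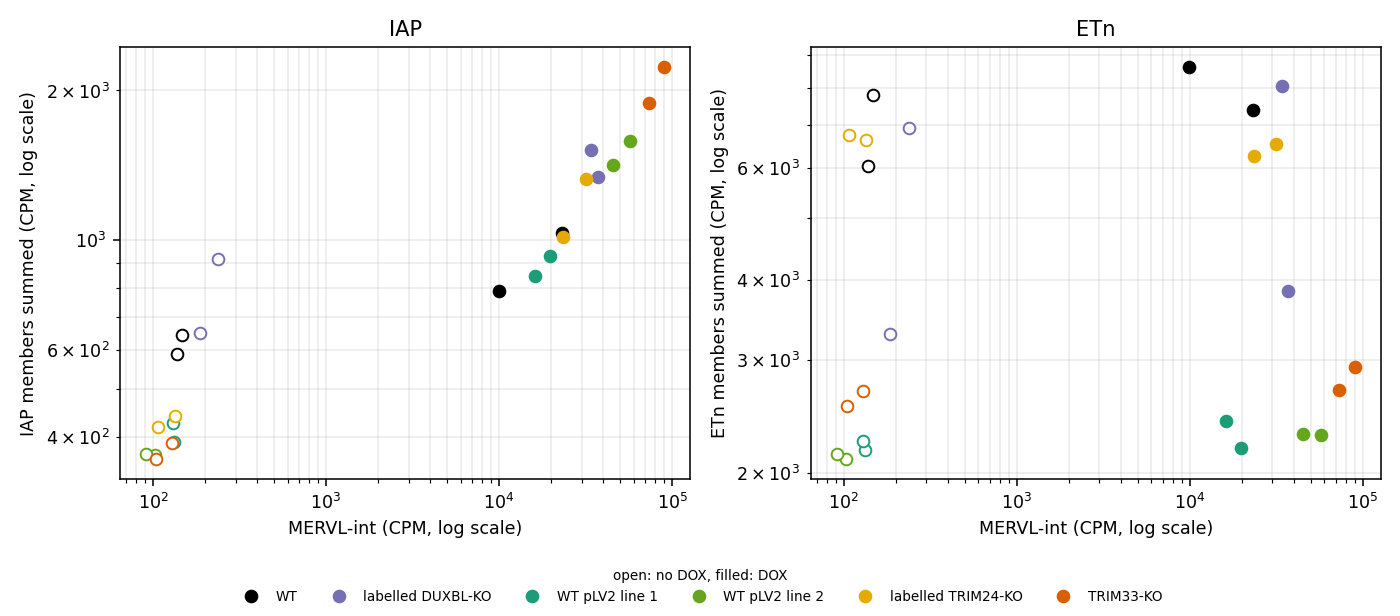
Summed IAP CPM and summed ETn CPM against MERVL-int CPM in the 24 libraries, all on log axes, open without DOX and filled with DOX. Among filled points of the pLV2 lines IAP increases with MERVL-int up to TRIM33-KO at the top right, while the ETn points of WT, DUXBL-KO and TRIM24-KO lie above those of the other 3 lines, and those of the WT pLV2 lines 1 and 2 overlap.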

How the data were processed

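All 24 libraries were analysed from tables of raw counts per gene and per repeat subfamily, deposited by the authors as 1 table per library. Per the labels' protocols, a directional kit was used and reads were paired and 75 bp long. The submitters' processing notes list bcl2fastq 2.20.0, cutadapt 1.18, STAR 2.7.6a and the mm10 build. How multi-mapping reads were counted, with which tool and which strand setting, is not given in the sources used here. Reads of near-identical subfamilies are therefore uncertain, and a read counted to a subfamily may come from a copy inside another transcript.

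Groups were taken from the titles, since the treatment tag differs from the title in 8 libraries (4 of them tagged untreated but titled DOX). The 8 libraries of WT and DUXBL-KO and the 16 pLV2 libraries were fitted apart, so CPM levels of the 2 sets were scaled separately. Counts were fitted with edgeR 4.0.16 in R 4.3.3 (quasi-likelihood, 1 mean per group, TMM factors and library sizes from gene counts, filterByExpr). This left 18070 genes and 982 repeat subfamilies, or 18251 and 977 in the pLV2 set. Benjamini-Hochberg adjustment ran over repeat subfamilies and over genes separately, with a threshold of 0.05. The script was checked on simulated counts. Of 55487 gene IDs, 54349 matched a symbol with their version and 792 without it. No 2 libraries held identical counts. No sequence is printed.

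Alternatives were RLE size factors, DESeq2 1.42.0, no filter, a minimum mean of 10 counts, repeats added to library sizes, leaving out the gene CT010467.1, joint adjustment, the replicate block, only the groups compared, each WT pLV2 line alone, and leaving out each library. CT010467.1 took 30.4% of gene counts in TRIM24-KO DOX replicate 2 and 12.9% in TRIM33-KO DOX replicate 2.

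The members, gene lists and tests were chosen with earlier results of these data known. Named with values were IAPEz-int, IAPLTR1_Mm, IAPLTR2_Mm, ETnERV-int, MMETn-int, RLTRETN_Mm, the members with the largest and smallest DOX change (mean of at least 50 counts) and, per other contrast, the 2 called members with the smallest p. Silencing genes named were Trim28, Setdb1, Dnmt1, Uhrf1, Zfp932, Gm15446 and, per line, the most significant rising and falling gene. Other names were chosen after their values were seen.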

Additional observations from a re-analysis of the deposited data

Results flagged for a closer look

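The DOX effect differed between lines, by an interaction test in edgeR, in 3 pLV2 comparisons. WT pLV2 line 2 differed from line 1 in 16 members, among them IAPEz-int (0.85 on the log2 scale), IAPLTR1_Mm (0.54), IAPLTR2_Mm (0.95), RLTRETN_Mm (0.55), ETnERV3-int (1.88) and IAPLTR3-int (2.33). Of all repeat subfamilies, 18.5% responded more in line 2. RLTRETN_Mm and IAPLTR3-int also started lower in line 2. TRIM33-KO differed from the mean of both WT pLV2 lines in 16 members, among them IAPEz-int (1.04), IAPLTR1_Mm (0.74), IAPLTR2_Mm (0.77) and RLTRETN_Mm (0.32). Of all repeat subfamilies, 34.4% responded more than that mean, and against line 2 alone edgeR called 0 members. The libraries labelled TRIM24-KO differed from the mean of both WT pLV2 lines in 3 members, among them RLTRETN_Mm (-0.42) and IAPEY4_I-int (-1.04). Of all repeat subfamilies, 2.15% responded less than that mean, and none of these 3 calls held against line 1 alone. With 2 libraries per group, no group was large enough to look for a library far from the others.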

How the results depend on the processing

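Of the counts of called members or silencing genes recomputed under settings other than leaving out a library, 163 stayed within 1.5 times the main count and 25 did not. For members raised in WT (7), DESeq2 gave 13, no filter 16, the replicate block 14 and only the groups compared 4; in DUXBL-KO joint adjustment with genes gave 13. Members with a different DOX effect came to 1 (DUXBL-KO) and 7 (TRIM24-KO) without a filter, to 1 and 11 for TRIM24-KO against WT pLV2 line 1 and line 2 alone, to 9 (TRIM33-KO) and 10 (line 2 minus line 1) with joint adjustment, and to 0 for TRIM33-KO against line 2 alone. Without DOX, no filter gave 6 (DUXBL-KO) and 7 (TRIM33-KO), and RLE size factors 2 (TRIM33-KO). Silencing genes came to 1 in WT with no filter or the block; to 2 with DESeq2, 3 with no filter or the block and 1 with only the groups compared in DUXBL-KO; to 16, 6 and 2 with only the groups compared in WT pLV2 line 1, line 2 and TRIM24-KO; and to 9 with DESeq2 in line 2.

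Leaving out 1 library at a time gave 0 to 15 members raised in WT, 9 to 18 in DUXBL-KO, and 2 to 6, 9 to 18 and 11 to 17 with a different DOX effect for TRIM24-KO, TRIM33-KO and line 2 minus line 1. It gave 0 to 3 for TRIM33-KO without DOX. Silencing genes ranged over 1 to 4, 8 to 13, 2 to 6 and 13 to 21 in WT pLV2 line 1, line 2, TRIM24-KO and TRIM33-KO.

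Signs turned only in values that were not called. The DOX change of MMETn-int was -0.0121 in WT pLV2 line 1 with RLE or DESeq2 and -0.00521 without CT010467.1. It was 0.0157 in line 2 with RLE or DESeq2 and 0.0144 with only the groups compared, and in TRIM33-KO 0.0248 with RLE, 0.0249 with DESeq2 and 9.01e-04 with only the groups compared. Its difference in DOX effect was 0.0230 (RLE) and 0.0231 (DESeq2) for TRIM33-KO, and 0.0277 with either and 0.0137 with only the groups compared for line 2 minus line 1. The difference in DOX effect of IAPEz-int for TRIM24-KO was 0.51 with line 1 as the only reference and -0.34 with line 2. Leaving out a library, ETnERV-int ranged from -0.11 to 0.28 in WT and from -0.39 to 0.91 in DUXBL-KO, MMETn-int from -0.46 to 0.84 in DUXBL-KO and -0.0747 to 0.0969 in WT pLV2 line 1, RLTRETN_Mm from -0.25 to 0.73 and IAPA_MM-int from -0.10 to 0.33 in DUXBL-KO. Differences in DOX effect ranged from -0.17 to 0.29 (IAPEz-int, TRIM24-KO), -0.71 to 0.59 (MMETn-int, DUXBL-KO) and -0.11 to 0.0404 (MMETn-int, line 2 minus line 1). Differences without DOX ranged from -0.0128 to 0.54 (IAPEz-int, DUXBL-KO), -1.07 to 0.0142 (MMETn-int, DUXBL-KO), -0.12 to 0.00513 (IAPEz-int, line 2 minus line 1) and -0.0394 to 0.0081 (MMETn-int, line 2 minus line 1). The cause was not tested.

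The labels do not say that replicate numbers pair libraries. The differences between replicates with and without DOX correlated over genes with r from 0.04 (WT pLV2 line 1) to 0.80 (DUXBL-KO). Counts under the replicate block not given above stayed within 1.5 times. Subfamilies with few counts, such as IAPLTR4 and IAPEY5_I-int without DOX, are limited by depth.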
